A study of Homo sapiens with 6 samples.

Results

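The GADD45 family consists of the genes GADD45A, GADD45B and GADD45G. Its members here are all probe sets that the platform annotation gives to 1 of these genes, which are 6 of the 54613 probe sets tested: 1 for GADD45A, 4 for GADD45B and 1 for GADD45G. The genes were taken by name, but the family was selected on the measured SP minus non-SP difference of GADD45B, and arrays were also set apart by the measured level of ASNS. IGROV1 is an established human ovarian carcinoma line, grown in RPMI 1640 with fetal bovine serum and sorted after Hoechst 33342 staining with no other treatment. Side population (SP) cells keep little of this DNA dye, whereas non-SP cells are those outside that gate. There were 3 SP arrays and 3 non-SP arrays, called biological replicates with no word on separate cultures, so p-values measure the spread between these arrays, which may in part be technical. All 6 share the parent line, the dye and the sort, and the RNA of each was amplified with a kit for very small amounts.

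GADD45 proteins are small acidic proteins without a known enzymatic activity of their own, and their genes are switched on by DNA damage and other stresses. They act by binding other proteins: PCNA in DNA replication and repair, the CDK inhibitor p21, the mitotic kinase CDK1 with cyclin B1, and the kinase MAP3K4, which they activate upstream of p38 and JNK. GADD45A is induced by DNA damage, GADD45B is induced by NF-kB and TGF-beta and restrains the JNK kinase MAP2K7, and GADD45G was found in mouse as a cytokine-induced gene.

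RefSeq promoters (GRCh38.p14) were at hand for 2 of the 3 members, and the 250 bases before the start of each gene are shown because GADD45B had the largest difference between the groups and the sign of GADD45G was opposite. Capitals mark matches on either strand to any of 5 motifs. The first was the TATA box, searched as TATAAA. The second was the CCAAT box, with its 5 letters. An E-box was searched as CACGTG. The core letters of the amino acid response element known from the asparagine synthetase gene ASNS were searched as TGATGNAA. An AP-1 site was searched as TGACTCA. Both genes lie on the plus strand, GADD45B at chr19:2475877-2476126 and GADD45G at chr9:89604762-89605011.
GADD45B: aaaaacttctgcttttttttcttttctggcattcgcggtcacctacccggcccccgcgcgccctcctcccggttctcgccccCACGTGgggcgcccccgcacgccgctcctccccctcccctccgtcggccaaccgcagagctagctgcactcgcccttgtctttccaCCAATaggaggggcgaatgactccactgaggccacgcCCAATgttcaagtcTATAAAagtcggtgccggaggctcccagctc
GADD45G: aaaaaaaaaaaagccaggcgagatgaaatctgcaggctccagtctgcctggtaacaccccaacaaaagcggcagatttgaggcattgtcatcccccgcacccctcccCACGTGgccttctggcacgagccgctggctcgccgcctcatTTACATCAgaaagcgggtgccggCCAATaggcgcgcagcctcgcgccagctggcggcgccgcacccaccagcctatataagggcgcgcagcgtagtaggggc
The GADD45B window held TATAAA from base 31 before the start, CCAAT from bases 82 and 45, and CACGTG from base 168. In the GADD45G window CCAAT began at base 79, CACGTG at base 143 and a TGATGNAA match on the minus strand spanned bases from 102 before the start. No marked matches overlapped. Over 35116 promoters of the same length, TATAAA was found in 10.7%, CCAAT in 32.0%, CACGTG in 6.34%, TGATGNAA in 3.14% and TGACTCA in 4.2%. Neither window held TGACTCA, which says only that these letters are not in these bases. The same holds for TATAAA in the GADD45G window, which has the similar letters tatataag towards its end that this search does not match.

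Levels are log2 values after RMA, which sets every array to 1 shared distribution, and differences are SP minus non-SP on that scale. Array medians lay between 5.59 and 5.64. The negative control probe sets (trp, a bacterial transcript) averaged 2.82 to 2.96 per array, and all 6 GADD45 probe sets lay above them on all 6 arrays. This does not by itself show expression, since the red cell gene HBB also lay above them on all 6 arrays. As to the label, 8 ovarian carcinoma markers averaged 9.35 to 9.43 in SP arrays and 9.36 in each non-SP array. The epithelial adhesion gene EPCAM read 12.00 to 12.08 in SP and 12.12 to 12.29 in non-SP arrays. MUC16, the dimmest of the 8, averaged 5.07 in SP and 5.24 in non-SP arrays, below HBB (5.46 and 5.53). The averages over the 8 also hide single markers that differed in either direction. Of the 8, 3 had an unadjusted p under 0.05 in limma, as did 6.78% of all genes, and 0 passed the adjusted threshold. The keratin KRT7 differed by 0.79 (SE 0.18), the adhesion gene CDH1 by 0.79 (SE 0.31) and the keratin KRT8 by -0.71 (SE 0.22), and the part of these differences in the results below was not tested. Markers of other cells averaged less: 4 leukocyte genes 3.59 to 3.87 in SP and 3.51 to 3.74 in non-SP arrays, 3 fibroblast genes 4.04 to 4.15 in SP and 3.94 to 4.17 in non-SP arrays, and the red cell gene HBB 5.38 to 5.57 in SP and 5.39 to 5.61 in non-SP arrays. The 3 endothelial genes averaged 5.70 to 5.79 in SP arrays and 5.87 to 5.93 in non-SP arrays. These groups did not overlap, and their part in the results below was not tested. In sorted cells measured in bulk, fewer cells with a transcript and less of it per cell cannot be told apart.

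Of the 3 genes, GADD45B had the largest difference and was lower in SP cells. Its brightest probe set, 207574_s_at, had levels of 8.41, 8.31 and 7.89 in SP replicates 1, 2 and 3, against 9.76, 9.75 and 9.42 in the non-SP replicates. All 3 SP arrays were below all 3 non-SP arrays, with a gap of 1.02 between the nearest pair. The means were 8.20 ± 0.28 in SP and 9.64 ± 0.19 in non-SP cells (SD, n = 3 each), a difference of -1.44 (SE 0.18, 95% interval -1.88 to -1.01). On the linear scale the signal was 2.72-fold lower in SP cells, with an interval of 2.01-fold to 3.67-fold. Of 19775 genes with 1 probe set each, 40 had a difference at least as low. Because the family was chosen with this difference known, these values are a description.

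**Figure D1:**
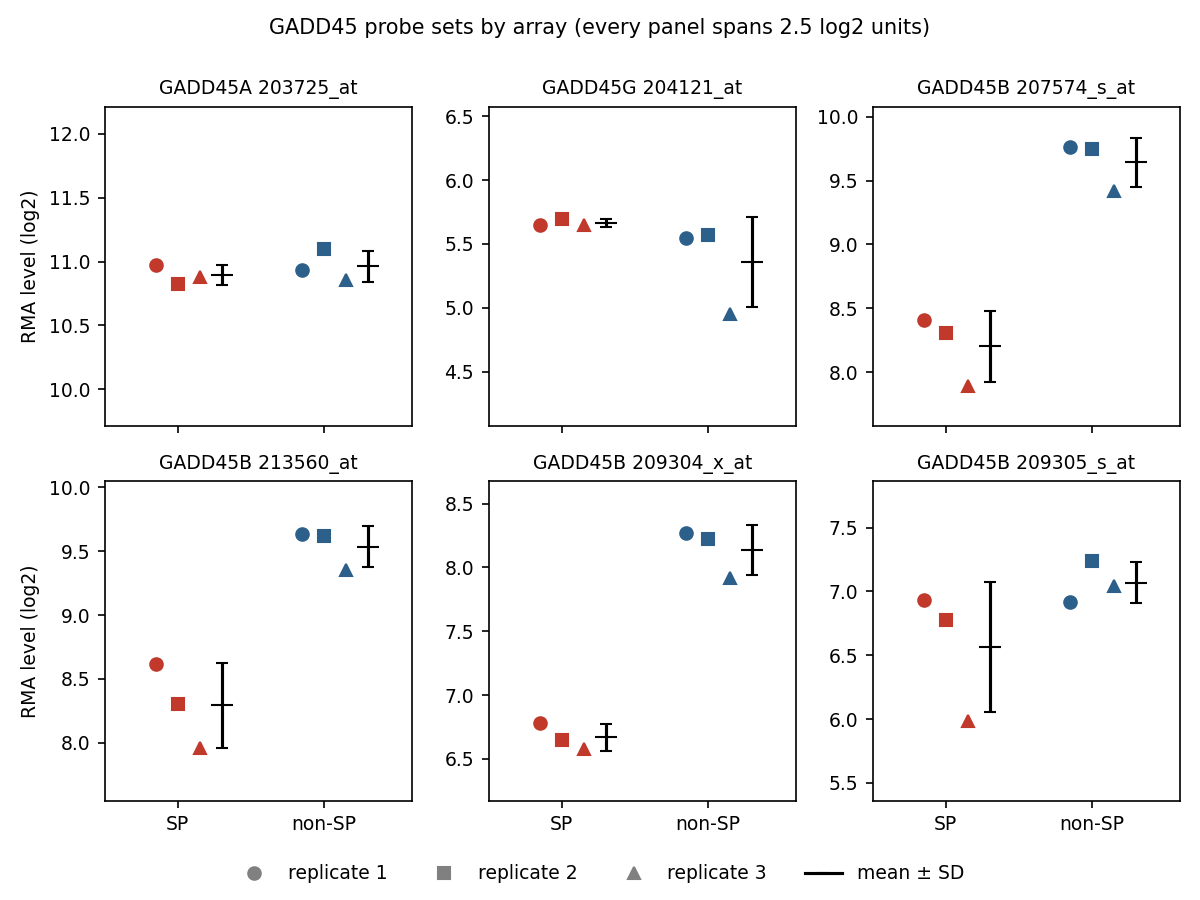
RMA level (log2) of each GADD45 probe set in the 3 SP (red) and 3 non-SP (blue) arrays, with marker shape giving the replicate and black bars the mean ± SD; every panel spans the same range of log2 units. For 3 of the 4 GADD45B probe sets all SP values lie below all non-SP values.

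The other GADD45B probe sets did not all give the same size. Probe set 213560_at read 8.62, 8.31 and 7.96 in SP arrays and 9.64, 9.62 and 9.35 in non-SP arrays, a difference of -1.24 (SE 0.20). Probe set 209304_x_at, a class whose probes may also bind other transcripts, read 6.78, 6.65 and 6.58 in SP arrays and 8.27, 8.22 and 7.91 in non-SP arrays, a difference of -1.47 (SE 0.15). For both, the groups did not overlap, and SP replicate 3 and non-SP replicate 3 were again the lowest arrays of their groups.

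The fourth GADD45B probe set, 209305_s_at, read 6.93, 6.77 and 5.99 in SP arrays and 6.92, 7.24 and 7.04 in non-SP arrays. Its groups overlapped, since SP replicate 1 lay above non-SP replicate 1. The difference was -0.50 (SE 0.26, interval -1.14 to 0.13), and without SP replicate 3, the lowest array, it was -0.21. The level of 207574_s_at over 209305_s_at within an array was 1.47, 1.54 and 1.90 in SP and 2.85, 2.51 and 2.38 in non-SP arrays. This gap was smaller in 3 of 3 SP arrays, with a mean difference of -0.94, given as a description because it uses the values that chose the family. Where on the transcript the 4 probe sets lie was not analysed here.

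**Figure D2:**
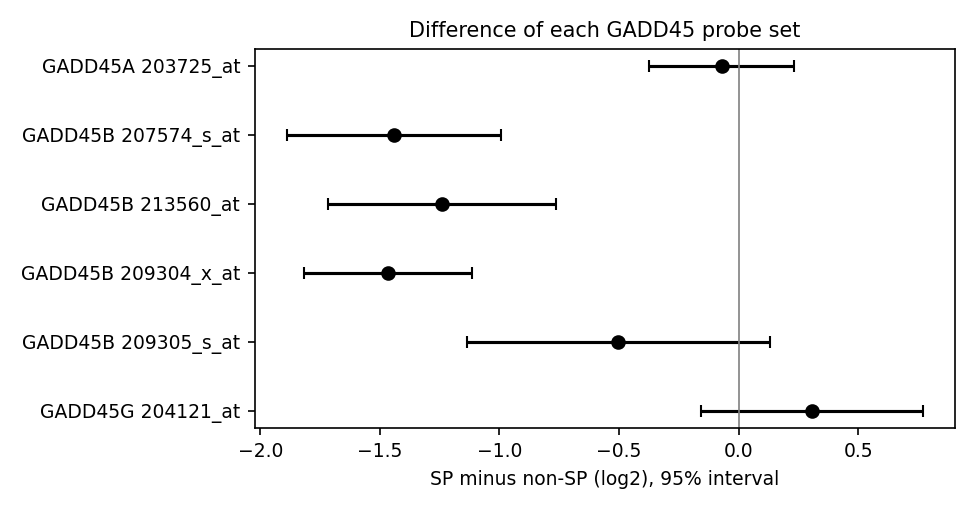
SP minus non-SP difference (log2) of each GADD45 probe set with its 95% interval from limma over all probe sets. The intervals of GADD45B 207574_s_at, 213560_at and 209304_x_at lie below 0, while those of 209305_s_at, GADD45A and GADD45G include 0.

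GADD45A, the member known for its response to DNA damage, had nearly the same level throughout. Its probe set 203725_at read 10.98, 10.82 and 10.88 in SP arrays and 10.93, 11.10 and 10.86 in non-SP arrays, a spread of 0.27 over all 6. The groups overlapped, with the lowest level in SP replicate 2 and the highest in non-SP replicate 2. Means were 10.89 ± 0.08 in SP and 10.96 ± 0.12 in non-SP cells (SD, n = 3 each). The difference of -0.07 (SE 0.12) had a 95% interval of -0.36 to 0.22.

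GADD45G, measured by 204121_at, read 5.65, 5.70 and 5.64 in SP arrays and 5.55, 5.57 and 4.95 in non-SP arrays. All SP values were above all non-SP values, but the nearest pair was 0.07 apart. The mean over the 6 arrays was 5.51, against 5.49 for the red cell gene HBB, and whether GADD45G stands above background was not tested. Means were 5.66 ± 0.03 in SP and 5.36 ± 0.35 in non-SP cells (SD, n = 3 each), and the difference was 0.31 (SE 0.19, interval -0.15 to 0.76). Non-SP replicate 3 carried most of it: without that array the difference was 0.10.

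In limma over all genes, 0 of the 3 members passed an adjusted p of 0.05, against 0.00506% of all genes lower and 0% higher, where the 1 gene past it was LINC00518, named because it was the single call. At an unadjusted p under 0.05 there was 1 member, GADD45B, with 6.78% of all genes there; nothing is read from these shares, since the family was chosen from this contrast. The adjusted p of GADD45B was 0.123. Groups did not overlap for GADD45B on the lower side, where 7.1% of all genes stood, and for GADD45G on the higher side, with 4.78% of all genes. With every probe set tested on its own, 0 of 6 passed (0.00183% of all probe sets lower, 0% higher), 3 had an unadjusted p under 0.05 (7.31% of all probe sets), and 3 were lower without overlap, as were 6.87% of all probe sets. GADD45G was the 1 probe set higher without overlap, as were 5.59% of all probe sets.

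The arrays also differ in ASNS, which encodes asparagine synthetase and is a target of the transcription factor ATF4 in the response to amino acid shortage. Arrays were put above or below a log2 ASNS level of 11. This split comes from the measured values and is no group of the study, so only values are given. ASNS was 12.64 in non-SP replicate 2, 12.43 in SP replicate 3 and 12.39 in SP replicate 2, then 9.90 in non-SP replicate 3, 9.78 in SP replicate 1 and 9.60 in non-SP replicate 1. The values next to the cut were 12.39 and 9.90, and each side holds both SP and non-SP arrays.

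GADD45 levels overlapped between the sides. GADD45A ranged from 10.82 to 11.10 in the 3 arrays above the cut and from 10.86 to 10.98 in the 3 below. GADD45G ranged from 5.57 to 5.70 above and from 4.95 to 5.65 below. The 2 sides overlapped for 6 of 6 GADD45 probe sets, 4 of them from 1 gene. They did not overlap for 23% of all probe sets and 26.9% of all genes, so overlap was the common case and nothing particular to the family is read from it.

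By 207574_s_at, GADD45B was lower in SP arrays on both sides of the cut. This had to be so, since its SP and non-SP values do not overlap and each side holds both. Nothing is therefore read from it, and the values are a description. Above the cut, 207574_s_at read 8.31 and 7.89 in SP replicates 2 and 3, against 9.75 in non-SP replicate 2, a difference of -1.65 between SP and non-SP. Below it, the level was 8.41 in SP replicate 1, against 9.76 and 9.42 in non-SP replicates 1 and 3, a difference of -1.19. The dimmest probe set, 209305_s_at, differed by -0.86 above the cut and by -0.05 below it. There SP replicate 1 (6.93) lay between non-SP replicates 1 and 3 (6.92 and 7.04).

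Of 5 other stress genes set beside ASNS, TRIB3, ATF3 and PPP1R15A were parted by its level, as were 26.9% of all genes. The 5 were chosen with earlier results of these data known, so nothing is read from this count. TRIB3, a pseudokinase induced by ATF4, ranged from 9.32 to 9.61 above the cut and from 7.72 to 8.07 below. ATF3, a stress-induced transcription factor, ranged from 8.55 to 8.94 above and from 7.95 to 8.51 below, with the sides nearly touching. PPP1R15A (GADD34), which restores translation after stress, ran the other way, at 6.41 to 6.73 above and 7.09 to 7.64 below. DDIT3 (CHOP or GADD153), named like the GADD45 genes for its induction by DNA damage, overlapped at 8.25 to 8.68 above and 8.43 to 8.56 below. CHAC1, which degrades glutathione, also overlapped, at 5.50 to 6.22 and 4.90 to 5.65. The 3' minus 5' signal of ACTB, a measure of how complete the RNA or its copies were, was 2.46 to 2.55 above and 2.02 to 2.29 below. It moved with the sides. The same measure for GAPDH overlapped, at 0.035 to 0.362 above and 0.042 to 0.148 below. The part of RNA completeness in the sides was not tested.

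**Figure D3:**
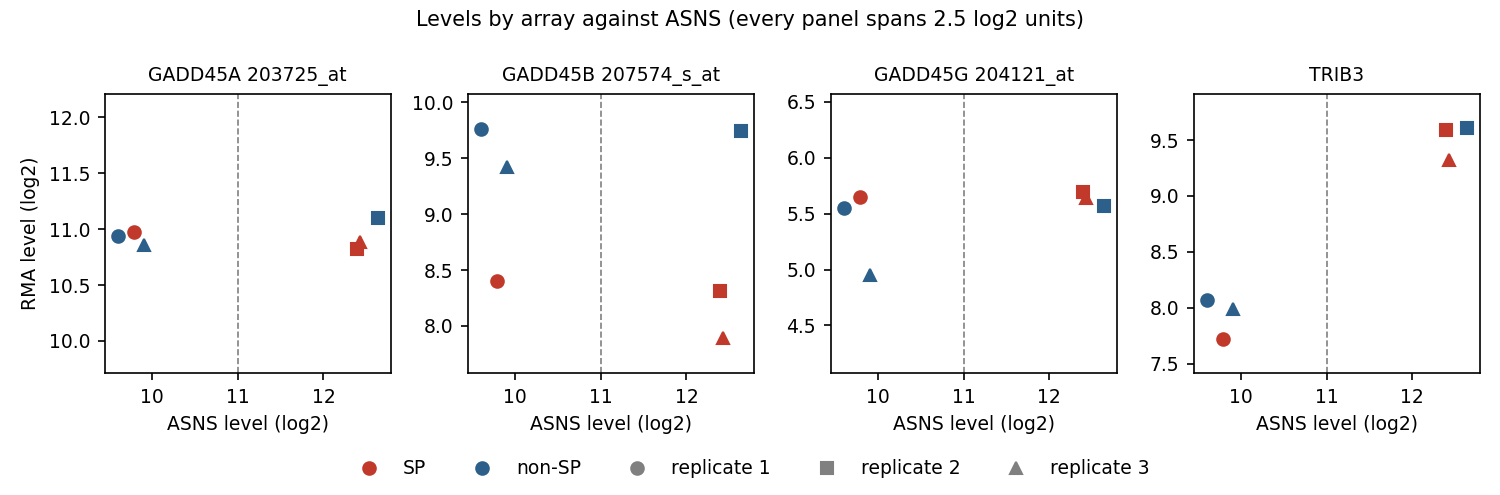
RMA level (log2) of GADD45A, GADD45B 207574_s_at, GADD45G and TRIB3 in each array against its ASNS level (log2), with the cut at 11 dashed, SP in red and non-SP in blue. GADD45B parts by SP and non-SP on both sides of the cut, which follows from its groups not overlapping. TRIB3, chosen with earlier results of these data known, parts by the cut, as do 26.9% of all genes.

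Of 17 proteins that GADD45 proteins bind or act through, 14 had a gene measured, and 0 passed the adjusted threshold in either direction. At an unadjusted p under 0.05, where 6.78% of all genes stood, there were 2, both higher in SP cells, and 7 of the 14 differences were above 0. CDK1, the mitotic kinase that GADD45 proteins can inhibit, read 9.52, 9.36 and 9.43 in SP arrays and 8.37, 8.95 and 9.06 in non-SP arrays, a difference of 0.64 (SE 0.20). CDKN1A, which encodes p21, read 11.23, 11.74 and 11.83 in SP arrays and 10.84, 11.22 and 10.93 in non-SP arrays, a difference of 0.60 (SE 0.20). For both, SP arrays were above non-SP arrays, although SP replicate 1 and non-SP replicate 2 nearly touched for CDKN1A. They were the 2 of the 14 that were higher without overlap, as were 4.78% of all genes. TET1, an enzyme that oxidises 5-methylcytosine, differed by -1.01 (SE 0.43), and MAP2K4, a kinase of JNK and p38, by 0.33 (SE 0.21), with overlapping groups. Without non-SP replicate 2 the MAP2K4 difference was 0.14, and with the ASNS side as a block that of TET1 was -0.67. MAP3K4, the kinase that GADD45 proteins activate, differed by 0.12 (SE 0.11), PCNA by 0.25 (SE 0.16), CCNB1 (cyclin B1) by -0.28 (SE 0.44) and GADD45GIP1, a GADD45-binding protein of mitochondria and nucleus, by -0.09 (SE 0.16). The median over the 14 was 0.05, against -0.02 over all genes, and with 1 array left out it lay between 0.03, when SP replicate 1 was omitted, and 0.10, when non-SP replicate 3 was. MAP2K3, MAP2K7 and MAPK14 were not analysed here.

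Among 20 genes of factors known to act on GADD45 genes, 18 were measured and 0 passed the adjusted threshold. At an unadjusted p under 0.05 there were 3 higher and 1 lower in SP cells (4 of 18, against 6.78% of all genes), and 10 of the 18 differences were above 0. ZNF350 (ZBRK1), a repressor that binds GADD45A together with BRCA1, read 2.80, 3.20 and 2.94 in SP arrays and 4.07, 4.06 and 4.21 in non-SP arrays. The groups did not overlap, and the SP values were at about the level of the negative controls. The difference of -1.13 (SE 0.14, limma adjusted p = 0.123) is therefore bounded by background, and with its 2 probe sets averaged it was -0.64. MYC, which represses GADD45A, read 10.74, 10.46 and 10.39 in SP arrays and 9.97, 9.64 and 10.01 in non-SP arrays, without overlap, a difference of 0.65 (SE 0.16). FOXO1, a forkhead factor, differed by 0.45 (SE 0.15) and NFYA, a subunit of the factor that binds CCAAT, by 0.67 (SE 0.25), both with all SP arrays above all non-SP arrays. Of the 18, 4 were higher and 1 lower without overlap, against 4.78% and 7.1% of all genes. The NFYA difference was 0.44 without non-SP replicate 1 and 0.39 with its 6 probe sets averaged. The median of the 18 was 0.11. The other two were not analysed here.

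Of 25 other stress and growth-arrest genes, 24 were measured and 0 passed the adjusted threshold, with 3 higher and 1 lower in SP cells at an unadjusted p under 0.05 (4 of 24, against 6.78% of all genes). Differences were above 0 for 12 and below 0 for 12, with a median of 0.02. KLF4, a growth-arrest transcription factor, read 7.56, 7.59 and 7.23 in SP arrays and 5.82, 6.39 and 7.14 in non-SP arrays, a difference of 1.01 (SE 0.33). SESN3, a sestrin that restrains mTORC1, read 4.42, 4.48 and 3.45 in SP arrays and 5.31, 4.71 and 5.90 in non-SP arrays, a difference of -1.19 (SE 0.39). Neither pair of groups overlapped. DDIT4, another inhibitor of mTORC1 signalling, differed by 0.37 (SE 0.12) and DUSP1, a phosphatase of p38 and JNK, by 0.40 (SE 0.16), also without overlap. Of the 24, 4 were higher and 3 lower without overlap, against 4.78% and 7.1% of all genes. With the probe sets of a gene averaged, the difference was 0.59 for KLF4, -0.69 for SESN3 and 0.24 for DUSP1. SESN3 averaged 4.71 over the 6 arrays, below HBB at 5.49, and whether it stands above background was not tested. Groups overlapped for the genes set beside ASNS: TRIB3 differed by 0.32 (SE 0.62), ATF3 by 0.19 (SE 0.26), PPP1R15A by -0.23 (SE 0.37), DDIT3 by -0.15 (SE 0.14) and CHAC1 by -0.12 (SE 0.35). Among the genes of the 3 lists named here with a difference, probe sets of a gene disagreed in sign for ATF3, where 1 of 3 had the sign given, and for DUSP1 and GADD45GIP1, where 2 of 3 had it. BTG2 was not analysed here.

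**Figure D4:**
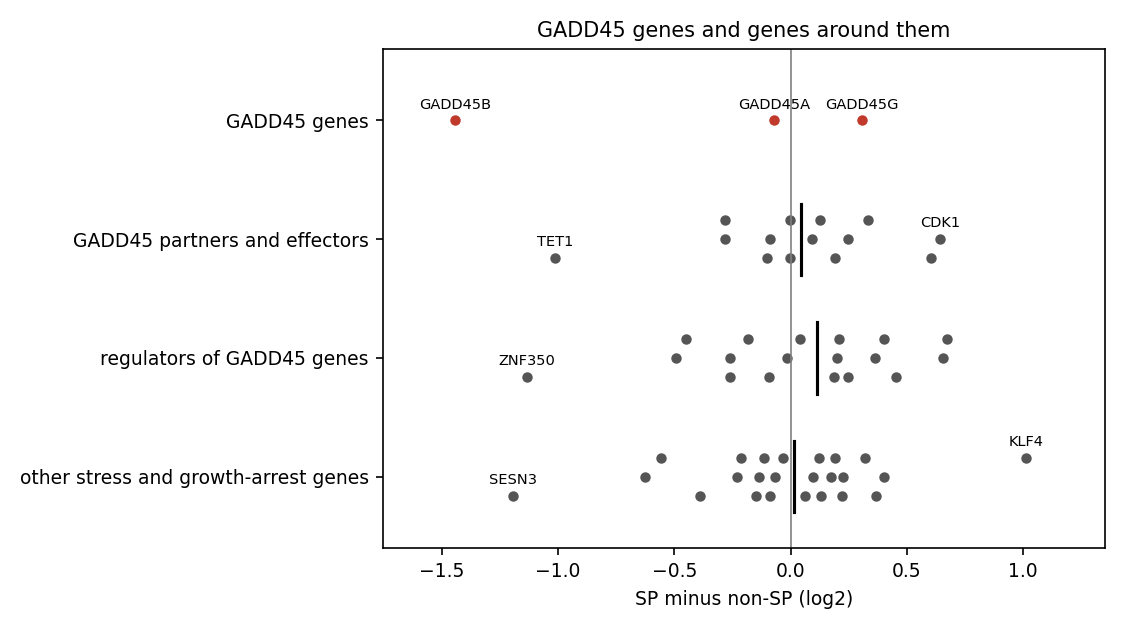
SP minus non-SP difference (log2) of the 3 GADD45 genes (red) and of every measured gene in 3 lists around them (grey). Black lines mark each list's median, and the GADD45 genes, CDK1, TET1, ZNF350, KLF4 and SESN3 are named. GADD45B at -1.44 lies below every gene of the 3 lists, but the family was selected on this difference, so its place is only a description.

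Genes with a pattern like each member over the 6 arrays were named by Pearson correlation among those above the median level with a range of at least 1 log2 unit. The 6 arrays share their groups, so these correlations are descriptions. For GADD45B they were LOC114224 (r = 0.99), SCGB1D2, a secretoglobin (0.98), PPP4R3B, a regulatory subunit of protein phosphatase 4 (0.98), and CHST2, a sulfotransferase (0.97), and 33 of 2368 candidates exceeded 0.9. SCGB1D2 read 5.83, 5.53 and 5.56 in SP arrays and 7.20, 7.02 and 6.62 in non-SP arrays, and CHST2 read 7.07, 7.07 and 6.66 in SP and 8.32, 7.90 and 8.05 in non-SP arrays. Both had all SP arrays below all non-SP arrays, as did 7.1% of all genes. Choosing genes by likeness to a member makes such shared patterns likely, so nothing is read from them. For GADD45A they were DNAH1 (0.99), HELQ (0.97), EGFLAM (0.94) and DCAF17 (0.90), which follow a member that itself spans 0.27. For GADD45G they were TVP23C (0.99), PSTPIP2 (0.96), CAP2 (0.96) and N4BP2L1 (0.95), each lowest in non-SP replicate 3, as GADD45G was.

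**Figure D5:**
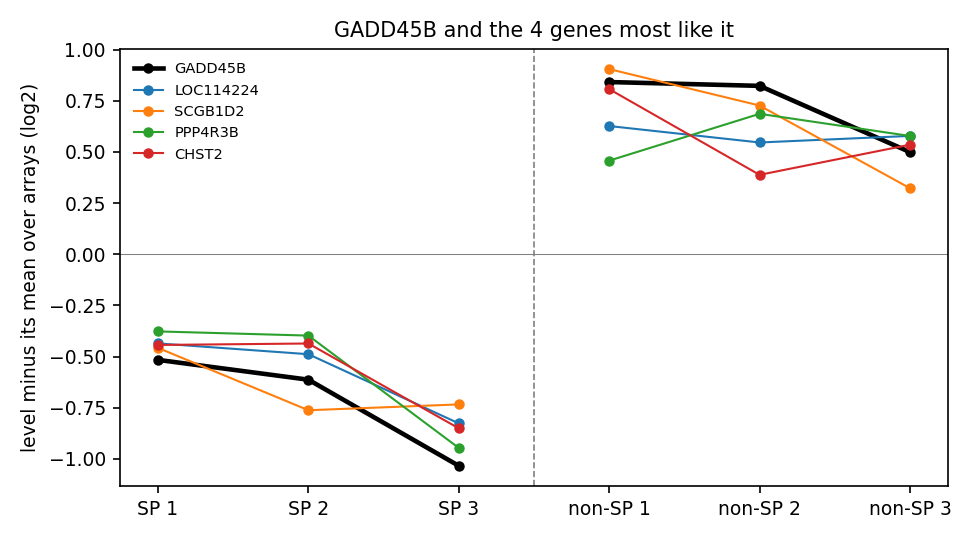
Level of GADD45B 207574_s_at (black) and of the 4 genes most like it, each minus its own mean over the 6 arrays (log2), in the 3 SP arrays and, right of the dashed line, the 3 non-SP arrays. All 5 lie below 0 in SP arrays and above 0 in non-SP arrays, which for the 4 follows largely from their choice by likeness to GADD45B.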

How the data were processed

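RNA of sorted cells was purified, amplified with a kit for very small amounts, biotinylated and hybridised to 1 array per sample, per the labels' protocols. The authors deposited 1 log2 level for each probe set, made with R 2.8.1, affy and RMA per the submitters' processing notes. RMA compresses differences near background and cannot show a global change in RNA content. The number of arrays limits precision.

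Of 54675 probe sets, 62 controls were left out. A symbol was carried by 41091 (1 each), 1801 carried several and 11721 were unnamed, and 41037 matched the RefSeq annotation by Entrez ID. The probe set with the highest mean stood for a gene. Limma 3.58.1 in R 4.3.3 (lmFit, eBayes) was fitted over all 6 arrays, two-sided, with Benjamini-Hochberg adjustment over 19775 genes. Intervals are at the 95% level. GADD45A, GADD45G and 207574_s_at are printed from that fit, the other GADD45B probe sets from the same fit over 54613 probe sets. The fit was tested on simulated data. Named genes are the members, ASNS, up to 4 genes per list by p and 5 stress genes set beside ASNS. The 4 genes most like each member are also named. MAP3K4, PCNA, CCNB1, GADD45GIP1, EPCAM, KRT7, KRT8, CDH1, MUC16 and HBB were added after their values were seen. Members and lists were chosen with earlier results of these data known. Alternative fits added the replicate number or the ASNS side as a block, averaged the probe sets of a gene, tested each probe set alone, dropped genes under the median level, renormalised by cyclic loess or by array medians, let the prior follow intensity robustly, weighted arrays, or left out each array in turn.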

Additional observations from a re-analysis of the deposited data

How the results depend on the processing

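GADD45B kept its direction and stayed above an adjusted p of 0.05 in all 15 alternatives run, with differences from -1.55 to -1.16 (limma adjusted p = 0.0846 to 0.46), the smallest in size with the mean of its 4 probe sets. GADD45A stayed between -0.12 and -0.003 and GADD45G between 0.10 and 0.43, also without a change of direction or call; GADD45G is not among genes above the median level. Leaving out 1 array gave -1.55 to -1.29 for GADD45B, -0.12 to -0.003 for GADD45A and 0.10 to 0.41 for GADD45G. The number of genes past the threshold was 1 in the fit reported, 3 with the replicate block, 12 with array weights, 5 with the ASNS side as a block (whose p may be too small, since the sides come from the values), 0 with only genes above the median level, 0 with averaged probe sets and 1 to 2 with 1 array left out; the cause of these moves was not tested. No GADD45 gene was among them. The labels do not say whether arrays with the same replicate number were paired. Same-numbered arrays deviated together for numbers 1 and 2 (correlations 0.45 and 0.38) but not for number 3 (-0.21). SP replicate 3 followed non-SP replicate 2 most closely (0.40). These correlations cannot decide on pairing, since each uses deviations of 3 arrays from their own group mean. The replicate block left GADD45B at -1.44 (limma adjusted p = 0.115). The 3 lists had 0 members past the threshold in every alternative run. The median of the partners and effectors was 0.0459 in the fit reported, 0.0294 (without SP replicate 1) to 0.1023 (without non-SP replicate 3) with 1 array left out (omitting SP replicate 2 gave 0.0915, omitting non-SP replicate 1 gave 0.085), 0.1247 among genes above the median level, 0.0801 with arrays centred on their median, 0.0696 with array weights, 0.1114 with the ASNS side as a block and 0.0297 with averaged probe sets. With 1 array left out the median of the regulators ranged from -0.0434 (without non-SP replicate 1) to 0.167, and that of the other stress and growth-arrest genes from -0.042 (without non-SP replicate 3) to 0.0813, turning below 0 also without SP replicate 2 (-0.027). That second median was -0.015 with the ASNS side as a block and -0.049 with averaged probe sets, so neither list has a settled direction.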
